A study of Mus musculus with 22 samples.

Results

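Genes that mark hepatoblasts and hepatocytes, the parenchymal cells of the liver, were followed through cultures from which blood stem cells were sorted. They were taken from a list of 32 genes, and the probe with the highest mean was used where a gene had more than 1. Of the 32, 31 could be measured among 22180 genes in all. They were 22 genes for secreted plasma proteins, 4 for transcription factors (Hnf4a, Foxa1, Foxa2, Foxa3) and 5 for intracellular proteins (Krt8, Krt18, Cps1, Fabp1, Ftcd). Trf, which encodes transferrin, has only 1 probe, which the annotation also gives to other genes, and no value is given for it.

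Livers of wild-type C57BL/6J mouse embryos of stage E14.5 were the source of all samples. Liver cells were kept on OP9-DL1, a stromal feeder line that carries the Notch ligand Dll1, and received either GSI, an inhibitor of gamma-secretase, at 1 µM or DMSO alone. GSI blocks the cut that frees the active part of Notch receptors. SLAM LSK cells, a gate for haematopoietic stem cells, were then sorted, and their RNA was measured on 1-colour arrays. There were 4 GSI and 4 DMSO samples at 10 h, and 7 GSI and 7 DMSO samples at 4 h, where each GSI sample had a DMSO partner from the same replicate culture, called a pair below.

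Hepatocytes are not blood cells. In the fetal liver blood forms among hepatoblasts, the precursors of hepatocytes, which make large amounts of plasma protein messenger RNA and are held together by a keratin network. Hnf4a and the Foxa factors bind regulatory DNA of many liver genes, together with factors of the HNF1 and C/EBP families.

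Levels are deposited log2 values, so a difference of 1 is a doubling. Changes are given with a standard error (SE), levels with a standard deviation (SD), and a gene was called where limma's adjusted p was under 0.05 over all 22180 genes. As a check of the sorted cells, Kit, the receptor of the gate, lay between 8.70 and 9.72 in GSI samples at 10 h, between 8.65 and 9.75 in DMSO samples at 10 h, between 9.79 and 10.27 in GSI samples at 4 h and between 9.74 and 10.20 in DMSO samples at 4 h. Slamf1, a SLAM family gene, lay between 4.76 and 5.24 in GSI and 4.48 and 5.14 in DMSO samples at 10 h. At 4 h it lay between 3.40 and 4.64 in GSI and 3.74 and 4.25 in DMSO samples, below every array median of that time. Ptprc, for the blood cell antigen CD45, was less even: it lay between 9.12 and 9.34 in GSI and 8.44 and 9.36 in DMSO samples at 10 h, and between 6.67 and 9.78 in GSI and 6.98 and 9.93 in DMSO samples at 4 h. Procr, a stem cell marker gene, lay between 6.22 and 7.33 over the 10 h samples and between 8.56 and 9.96 over the 4 h samples. Medians of the arrays over all genes were 4.67 to 4.81 at 10 h and 5.34 to 5.45 at 4 h, so that levels of the 2 times do not share a scale. By codes that the submitters gave the samples, 2 runs held the 10 h pairs (pairs 1 and 2; pairs 3 and 4) and 3 runs the 4 h pairs (pair 1; pairs 2 and 3; pairs 4 to 7), and what a run stands for is not stated. No detection limit could be set, so a flat dim probe cannot be told from one without signal. Precision is limited by how many arrays there are.

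The proximal promoters of 4 genes that varied widely between cultures (Alb, Afp, Fgb and Fabp1) and of 1 that did not (Ftcd) are printed to show regulatory letters that such genes can carry. Each runs from 250 bases before to 50 bases after the transcription start in RefSeq on GRCm38.p6. Alb and Afp, genes for the adult and the fetal plasma carrier protein, are neighbours on chromosome 5, at chr5:90460620-90460919 and chr5:90490464-90490763, both on the plus strand. Fgb, for the fibrinogen beta chain, is at chr3:83049814-83050113 on the minus strand. Fabp1, for the liver fatty acid binding protein, is at chr6:71199629-71199928 and Ftcd, for an enzyme of folate and histidine metabolism, at chr10:76575398-76575697, both on the plus strand. Capitals mark matches on either strand to motifs of FOXA (TGTTTNC), HNF1 (GTTAAT), C/EBP (TTGCNNAA) and the TATA box (TATAAA).
Alb: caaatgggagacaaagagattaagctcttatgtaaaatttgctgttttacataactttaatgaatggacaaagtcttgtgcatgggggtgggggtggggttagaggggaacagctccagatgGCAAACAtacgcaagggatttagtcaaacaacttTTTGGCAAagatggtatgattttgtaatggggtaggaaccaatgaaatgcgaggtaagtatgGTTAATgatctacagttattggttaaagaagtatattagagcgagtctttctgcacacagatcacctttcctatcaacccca
Afp: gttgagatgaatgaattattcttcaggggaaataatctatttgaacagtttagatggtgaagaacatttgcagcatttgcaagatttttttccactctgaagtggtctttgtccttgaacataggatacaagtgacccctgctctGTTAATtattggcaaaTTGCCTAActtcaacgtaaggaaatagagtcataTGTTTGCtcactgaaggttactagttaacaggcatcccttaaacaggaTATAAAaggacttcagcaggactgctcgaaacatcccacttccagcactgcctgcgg
Fgb: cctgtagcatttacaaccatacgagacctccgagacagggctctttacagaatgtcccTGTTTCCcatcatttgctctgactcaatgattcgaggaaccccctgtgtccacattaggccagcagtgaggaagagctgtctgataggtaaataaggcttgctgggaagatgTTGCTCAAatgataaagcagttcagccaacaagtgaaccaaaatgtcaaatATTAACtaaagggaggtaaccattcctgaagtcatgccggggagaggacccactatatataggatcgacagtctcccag
Fabp1: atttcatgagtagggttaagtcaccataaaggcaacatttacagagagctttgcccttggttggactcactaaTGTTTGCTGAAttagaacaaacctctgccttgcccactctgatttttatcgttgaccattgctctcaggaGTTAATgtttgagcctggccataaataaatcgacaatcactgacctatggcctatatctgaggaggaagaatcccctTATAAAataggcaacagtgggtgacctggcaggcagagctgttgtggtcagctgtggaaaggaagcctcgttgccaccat
Ftcd: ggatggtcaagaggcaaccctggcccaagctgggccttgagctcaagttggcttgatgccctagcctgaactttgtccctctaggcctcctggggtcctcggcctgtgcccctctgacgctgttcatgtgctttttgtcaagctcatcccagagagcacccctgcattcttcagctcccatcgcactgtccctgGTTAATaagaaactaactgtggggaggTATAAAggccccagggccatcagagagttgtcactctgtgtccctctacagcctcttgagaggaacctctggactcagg

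Alb, Afp, Fgb and Fabp1 each held a FOXA, an HNF1 and a C/EBP match in this window, and in Fabp1 the FOXA and C/EBP matches overlap. Ftcd held an HNF1 and a TATA match. Other windows did not divide in this way: that of Fgg, a gene with one of the widest ranges, held no match, those of Ambp and Krt18 held FOXA alone and that of Krt8 TATA alone, while that of Foxa1 and 1 of the 2 of Hnf4a, genes that did not pass between cultures, held FOXA. Promoter windows were found for 26 of the 32 genes, 31 windows in all. A FOXA match was in 17 of the 31 windows (54.8%) and in 20.5% of all 32851 mouse promoters of the same length. The HNF1 letters were in 10 windows (32.3%) and 7.1% of all promoters, the C/EBP letters in 11 windows (35.5%) and 10.8%, and the TATA letters in 11 windows (35.5%) and 13.6%. The letters CAAAGTCC, a core of HNF4 sites, were in none of the 31 windows and in 1.42% of all promoters. Matches describe these letters only.

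The 31 listed hepatocyte genes differed between the 7 cultures at 4 h more widely than most genes did. This list was chosen with earlier results of these data known, so its counts describe the listed genes only. Of the 31 genes, 25 differed between cultures, against a background of 25.5% of all genes (limma moderated F test). These were 22 of 22 secreted products, 3 of 5 intracellular proteins and 0 of 4 transcription factors. The highest culture mean lay a median of 2.40 above the lowest for the 31 genes, and 0.44 for all genes. Wide ranges were not particular to them: the median range was 2.39 for 18 endothelial, 2.04 for 18 macrophage and 1.98 for 14 erythroid genes. It was 1.72 for 23 stromal and feeder genes and 1.63 for 16 stem cell genes. For 54 further hepatocyte genes, of which 24 differed, it was 0.84. Fewer hepatocytes and less RNA per hepatocyte cannot be told apart in such samples.

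**Figure D1:**
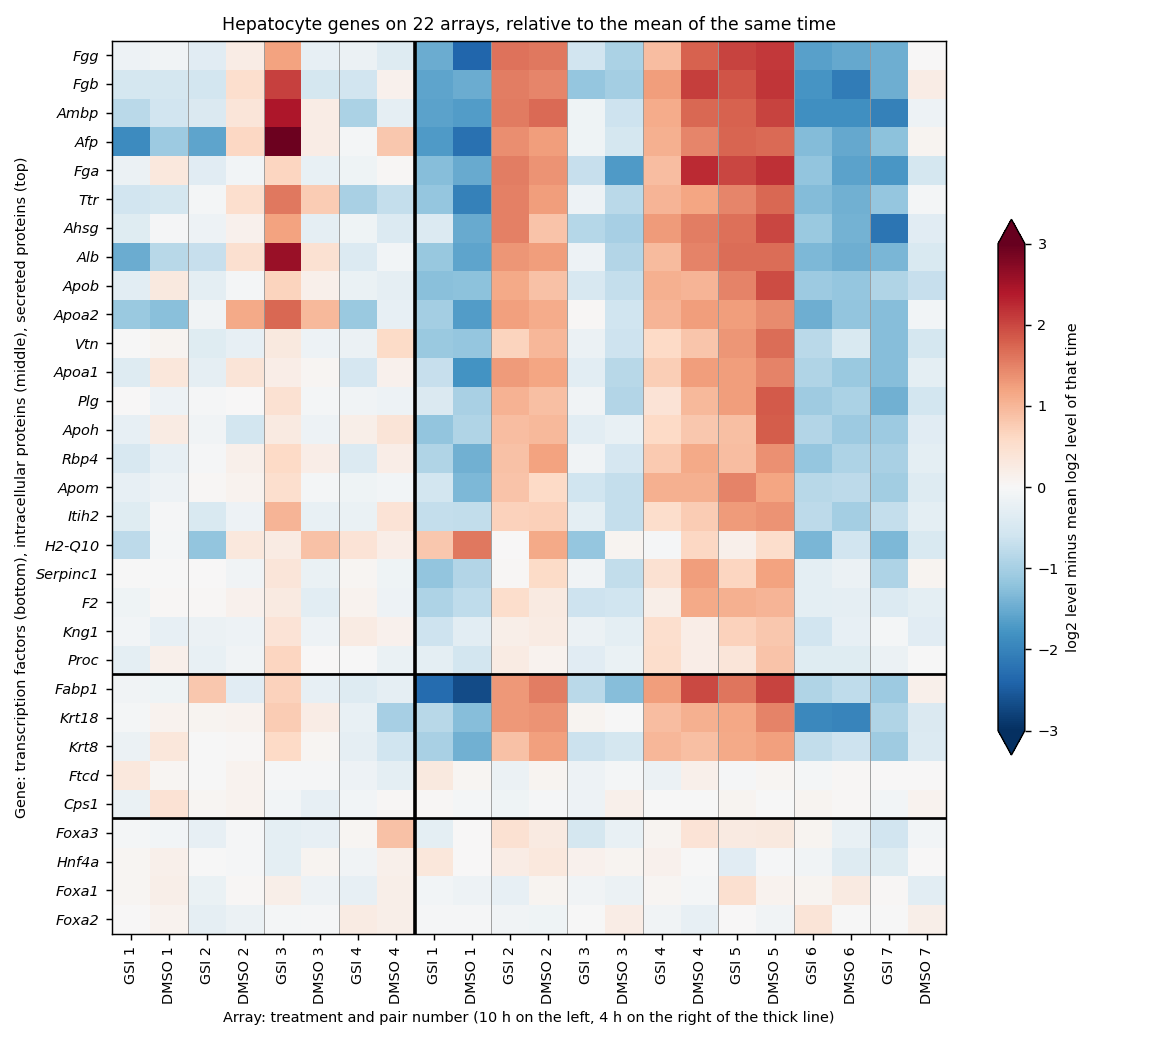
Level of the 31 hepatocyte genes (rows) on the 22 arrays (columns), as log2 difference from the gene's mean over the arrays of the same time; red is higher, and within each pair the GSI array is left of the DMSO array. At 4 h pairs 2, 4 and 5 are red on both arrays for most secreted products, and the rows of Ftcd, Cps1 and the transcription factors stay pale. At 10 h the GSI array of pair 3 stands out.

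Alb, for albumin, averaged 7.92 in culture 1, 10.56 in culture 2, 8.76 in culture 3, 10.50 in culture 4, 10.96 in culture 5, 7.87 in culture 6 and 8.37 in culture 7 (means of the GSI and DMSO arrays). Afp, for alpha-fetoprotein, averaged 7.53, 10.84, 9.17, 10.77, 11.23, 8.09 and 8.93 in the same order. Both genes were thus highest in cultures 5, 2 and 4, and their arrays in these cultures lay above all others. The range was 8.52-fold for Alb (adjusted p = 0.000314) and 13.0-fold for Afp (adjusted p = 0.00288).

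The fibrinogen genes, neighbours on chromosome 3 whose products form the clot, had some of the widest ranges. Fgb averaged 5.27, 8.30, 5.71, 8.47, 8.81, 4.88 and 6.18 in cultures 1 to 7. The range was 15.3-fold for Fgb, 16.1-fold for Fgg, for the gamma chain, and 11.3-fold for Fga, for the alpha chain. Cultures 2, 4 and 5 were again the highest for each. Other genes of clotting and its control ranged less: Serpinc1, for antithrombin, 3.87-fold, F2, for prothrombin, 3.68-fold, Kng1, for kininogen, 2.33-fold, and Proc, for protein C, 2.03-fold. Plg, for plasminogen, which dissolves clots, ranged 5.84-fold.

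Apolipoproteins and carriers had the same 3 cultures on top. Ttr, for the thyroid hormone carrier transthyretin, ranged 9.07-fold, and Rbp4, for the retinol carrier that travels with it, 4.99-fold. Among apolipoproteins the ranges were 7.76-fold for Apob, 6.45-fold for Apoa2, 6.15-fold for Apoa1, 5.29-fold for Apoh and 4.84-fold for Apom. Ambp, the precursor of alpha-1-microglobulin and bikunin, ranged 13.3-fold, and Itih2, a heavy chain that joins to bikunin, 4.64-fold. Ahsg, for fetuin-A, ranged 8.58-fold, and Vtn, for the adhesion protein vitronectin, 6.18-fold.

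Fabp1 had the widest range of the 31 genes. It averaged 4.18, 8.08, 5.63, 8.29, 8.49, 5.83 and 6.20 in cultures 1 to 7, a 19.8-fold range (adjusted p = 6.54e-07), and 99.9% of all genes had a smaller one. Krt8 and Krt18, partner keratins of simple epithelia that hepatocytes use, ranged 5.25-fold and 9.73-fold. Krt18 has another probe, whose culture means ran from 5.53 to 9.84. Cps1, for the first enzyme of the urea cycle, had culture means of 4.12 to 4.27 (adjusted p = 0.993), and Ftcd of 5.23 to 5.51 (adjusted p = 0.839). Neither differed beyond the spread within pairs.

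None of the 4 transcription factors passed limma's F test, and 1, Foxa3, had an unadjusted p under 0.05, as did 7682 of all 22180 genes. Hnf4a lay between 5.39 and 5.90 over the 7 cultures (adjusted p = 0.201), Foxa1 between 3.89 and 4.33 (adjusted p = 0.334) and Foxa2 between 5.44 and 5.79 (adjusted p = 0.54). Foxa3 ranged 1.66-fold, from 5.43 in culture 3 to 6.16 in culture 2 (adjusted p = 0.0555), and passed in 5 of the alternatives. The secreted products, the keratins and Fabp1 thus passed, and the transcription factors, Cps1 and Ftcd did not. Foxa3 was nonetheless highest in cultures 2, 5 and 4 (6.16, 6.08 and 6.05), and correlated with the mean of the other hepatocyte genes at r = 0.77. Cps1 and Foxa1 lay below all array medians at 4 h. Since flat dim probes cannot be told from probes without signal, these calls do not show that the list divides.

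Cultures 2, 4 and 5 were the 3 highest for 25 of the 31 genes, and for 23 of them all 6 arrays of these cultures lay above the other 8. Culture 5 was the highest for 25 genes, culture 1 the lowest for 16 and culture 6 the lowest for 9. The cultures were picked from these same values. How many of all genes share these orders was not counted, so the counts only describe the 31 genes. Across the 14 arrays at 4 h, the level of a secreted product correlated with the mean of the other hepatocyte genes with a median r of 0.98, and over 0.9 for 18 of 22. These arrays share cultures and runs, so the correlation only describes them. H2-Q10, a class I histocompatibility gene whose product is secreted by liver, was the secreted product with the lowest r, 0.31, and was highest in culture 1 (7.83) and lowest in culture 6 (5.66). Runs held high and low cultures together: within the run of pairs 2 and 3, 23 of the 31 genes differed (2.77% of all genes), and within the run of pairs 4 to 7, 25 did (18.9% of all genes). Leaving out any 1 of the 7 cultures left 25 called, against 11.6% to 25.8% of all genes. Pairs 4 and 5 share a letter in the sample descriptions, and what it stands for is not stated.

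**Figure D2:**
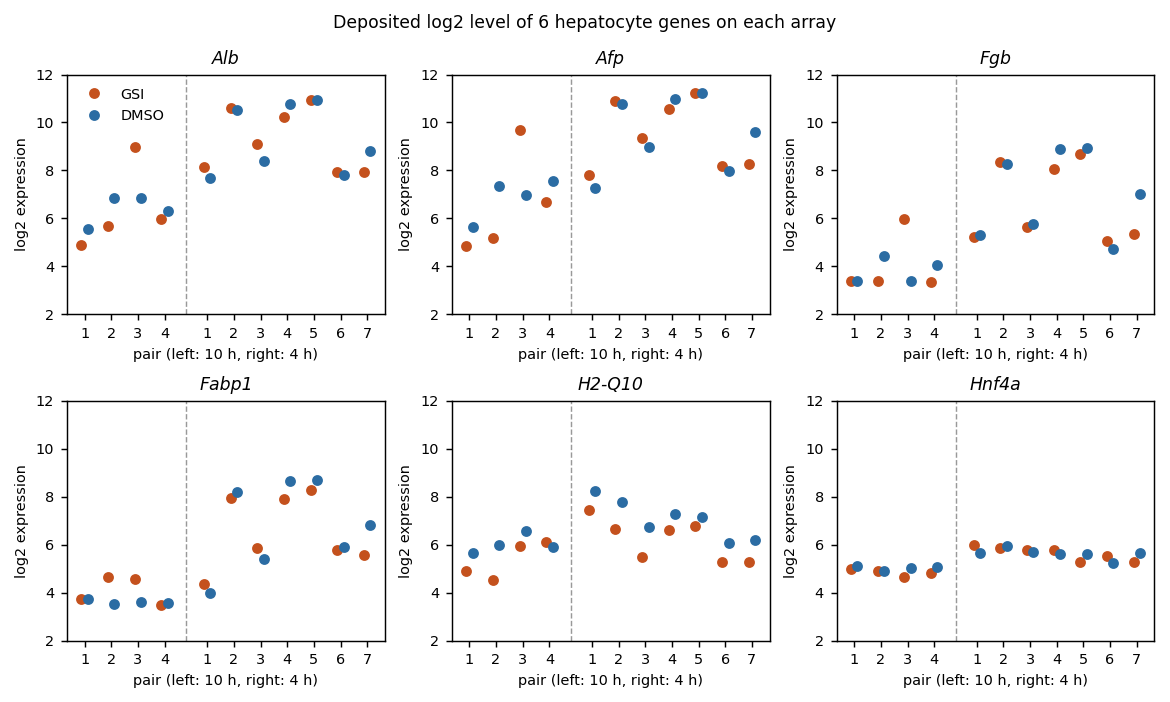
Deposited log2 level (vertical axis) of 6 hepatocyte genes on each array, by pair, with 10 h on the left and 4 h on the right; orange points are GSI and blue points DMSO. At 4 h partners of a pair lie close together while pairs differ, as for Fabp1 with culture means from 4.18 to 8.49. H2-Q10 has the GSI point below the DMSO point in 7 of 7 pairs at 4 h, and Hnf4a is flat.

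Lists of genes of other cell types, and of stem cells, moved between the same cultures in other orders. Only list means were compared, which do not count cells. The mean log2 level of the 22 secreted products was 5.81, 7.86, 6.34, 7.85, 8.29, 5.81 and 6.16 in cultures 1 to 7. For 18 endothelial genes it was 7.32, 8.31, 8.34, 8.67, 9.08, 9.88 and 8.97, with the highest value in culture 6, where most hepatocyte genes were low. For 14 erythroid genes it was 7.03, 6.59, 6.67, 7.63, 6.95, 6.13 and 8.00, highest in culture 7. For 18 macrophage genes the mean ran from 6.06 in culture 7 to 7.27 in culture 3, and for 23 stromal and feeder genes from 6.45 in culture 2 to 7.77 in culture 7. For 16 stem cell genes it ran from 7.34 in culture 6 to 8.58 in culture 2. In these lists 18 of 18 endothelial, 12 of 14 erythroid and 15 of 18 macrophage genes also differed between cultures. So did 17 of 23 stromal and 15 of 16 stem cell genes, against 25.5% of all genes. Their part in the hepatocyte result was not tested.

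**Figure D3:**
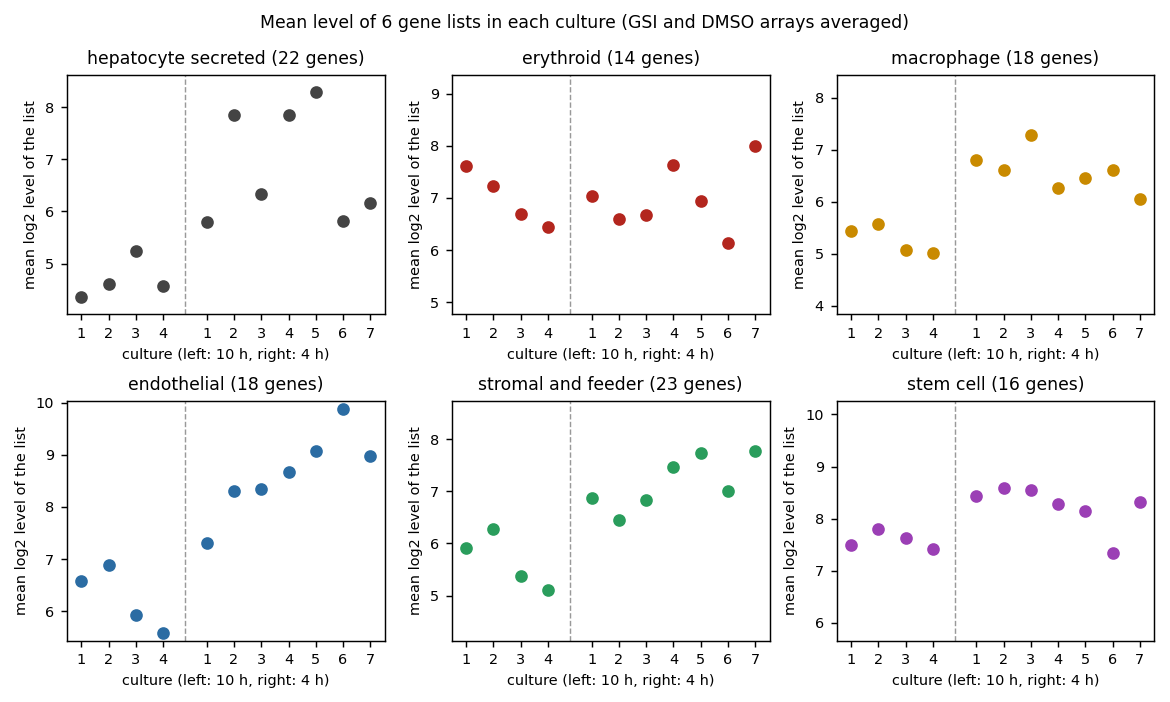
Mean log2 level of 6 gene lists (1 panel each, all panels spanning the same height on the log2 axis) in the 4 cultures at 10 h, left of the dashed line, and the 7 cultures at 4 h, right of it; each point averages the GSI and DMSO arrays. The secreted hepatocyte products are highest in cultures 5, 2 and 4 at 4 h, whereas the endothelial list is highest in culture 6 and the erythroid list in culture 7.

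At 10 h the range of culture means had a median of 0.61 over the 31 genes, against 2.40 at 4 h, and the difference was not tested. Of the 31 hepatocyte genes 6 differed between the 4 cultures, against a background of 11.9% of all genes (limma moderated F test). They were Alb, Afp, Apoa2, Ttr, H2-Q10 and Krt18. With 10 h arrays alone Alb (limma adjusted p = 0.184), Afp (0.281), H2-Q10 (0.273) and Krt18 (0.191) no longer passed. H2-Q10 was also lost with its probes averaged (limma adjusted p = 0.336), and Ttr without pair 3 (limma adjusted p = 0.0816). Apoa2 averaged 6.08, 7.77, 8.60 and 6.58 in cultures 1 to 4, a 5.74-fold range (adjusted p = 0.00226), and Ttr averaged 5.95, 6.73, 7.68 and 5.67 (adjusted p = 0.00495). Alb ranged 6.39-fold (adjusted p = 0.0167) and Afp 8.39-fold (adjusted p = 0.0404), each from culture 1 to culture 3. Culture 3 was the highest for 20 of the 31 genes. Without pair 3 the count was 2, against 10.9% of all genes, and without pair 1 it was 3, against 13.7%. Within the run of pairs 3 and 4 it was 3 (1.22% of all genes). Within that of pairs 1 and 2 it was 0 (0.00902% of all genes).

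In culture 3 at 10 h it was the GSI array that was high for most of the 31 genes, though not for all. H2-Q10 was at 5.94 in the GSI array and 6.56 in the DMSO array of pair 3. For Ttr both arrays of pair 3 were the highest of their treatment, at 8.09 in GSI and 7.26 in DMSO. Alb had 4.91, 5.70, 8.97 and 5.97 in GSI samples 1 to 4, against 5.55, 6.86, 6.83 and 6.31 in DMSO samples. Fgb had 3.40, 3.38, 5.98 and 3.34 in GSI samples, against 3.40, 4.44, 3.40 and 4.05 in DMSO samples. The GSI array of pair 3 was the highest of the 8 for 20 of the 31 genes, and its excess over its own DMSO partner had a median of 0.56 over the 31 genes (27 higher in GSI, 7 of them by over 1). In the other 3 pairs this median lay between -0.20 and -0.13. For other gene lists the same pair had a median difference of 0.01 over macrophage genes, -0.07 over endothelial genes, -0.18 over erythroid genes and -0.36 over stromal genes. Over stem cell genes it was 0.36, with 0.66, 0.20 and 0.34 in pairs 1, 2 and 4. Over 15 bile duct and hepatoblast genes it was 0.20 in pair 3, and over 54 further hepatocyte genes 0.05.

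The comparison of GSI with DMSO asked whether the hepatocyte genes followed Notch signalling. No hepatocyte gene passed at either time. At 10 h 0 of 31 were called in limma, against 0.667% of all genes. An unadjusted p under 0.05 was found for 1 of them, and for 3122 of all 22180 genes. At 4 h 0 of 31 were called, against 0.00451% of all genes (1 gene). There 3 of the 31, and 934 of all 22180 genes, had an unadjusted p under 0.05. As a mark of scale Hes1, a direct Notch target, fell by 1.36 ± 0.117 (SE) on the log2 scale at 10 h and by 0.97 ± 0.088 (SE) at 4 h. The median change of the 31 genes was -0.0011 at 10 h (all genes -0.014) and -0.063 at 4 h (all genes 0.0085). Among the 22 secreted products 11 were below 0 at 10 h and 19 at 4 h, against 11925 and 10139 of all 22180 genes.

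Signs at 4 h were mostly negative, and single pairs set the size. The median difference of the 31 genes was 0.25, 0.02, 0.16, -0.25, -0.23, 0.02 and -0.74 in pairs 1 to 7. In pair 7, 28 of 31 genes were lower in GSI, 10 of them by over 1, and without pair 7 the median over genes was 0.023. In that pair the other lists had medians of -0.35 for erythroid, -0.29 for stromal, -0.15 for macrophage, -0.06 for endothelial and 0.17 for stem cell genes. The median was -0.19 for bile duct and hepatoblast genes and -0.11 for the further hepatocyte genes. At 10 h the median was -0.25 without pair 3.

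H2-Q10 was the hepatocyte gene with the smallest p at both times. Its level was 4.90, 4.52, 5.94 and 6.10 in GSI samples 1 to 4 at 10 h, against 5.63, 6.00, 6.56 and 5.89 in their DMSO partners. At 4 h it was 5.27 at the lowest, 6.61 at the median and 7.45 at the highest in GSI samples, against 6.05, 7.17 and 8.22 in DMSO samples. It was lower in GSI in 3 of 4 pairs at 10 h and in 7 of 7 pairs at 4 h, while the groups overlapped at both times. The change was -0.66 ± 0.197 (SE) at 10 h (limma adjusted p = 0.136) and -0.83 ± 0.149 (SE) at 4 h (limma adjusted p = 0.317). At 4 h it passed when only 4 h arrays were fitted (limma adjusted p = 0.0196) and when the spread was set by time (limma adjusted p = 0.0492). The other H2-Q10 probe changed by -0.016 at 10 h and -0.088 at 4 h, so that the probes disagree. Genes of this family are close in sequence, and hybridisation of relatives was not tested.

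**Figure D4:**
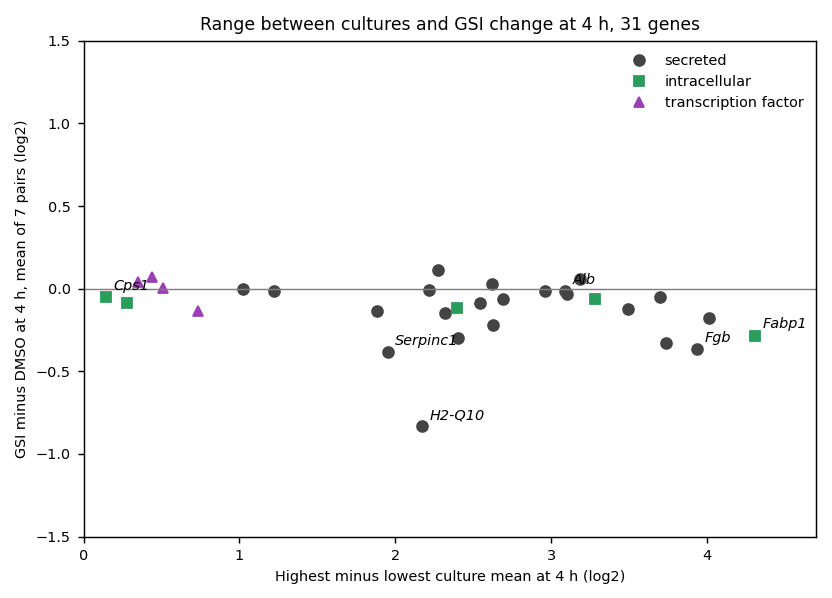
Mean GSI minus DMSO difference at 4 h (vertical, log2, 7 pairs) against the range of culture means at 4 h (horizontal, log2) for the 31 genes; circles are secreted products, squares intracellular proteins and triangles transcription factors. Ranges reach 4.31 for Fabp1, while differences stay between -0.83 (H2-Q10) and 0.11 (Apom).

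The genes with the widest culture ranges showed small and uncertain GSI differences. Fgb differed by 0.20 ± 0.427 (SE) at 10 h and by -0.37 ± 0.323 (SE) at 4 h. Fabp1 differed by 0.50 ± 0.248 (SE) at 10 h and by -0.28 ± 0.187 (SE) at 4 h. Alb differed by -0.0011 ± 0.371 (SE) at 10 h and by -0.017 ± 0.281 (SE) at 4 h. Serpinc1 and Apoh, at -0.39 ± 0.147 and -0.30 ± 0.138 (SE), were the other 2 genes with an unadjusted p under 0.05 at 4 h, each lower in GSI in 6 of 7 pairs. The transcription factors lay between -0.26 and -0.03 at 10 h and between -0.14 and 0.07 at 4 h. The GSI effect at 10 h minus that at 4 h was called for 0 of 31 genes, against 0.018% of all genes (4 genes). It was 0.78 ± 0.311 (SE) for Fabp1 and 0.60 ± 0.244 (SE) for Serpinc1, the 2 with an unadjusted p under 0.05. Of all 22180 genes, 2075 had such a p.

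Secreted products were lower after the longer culture. With each array's median subtracted, 15 of the 31 genes were lower at 10 h than at 4 h in GSI and 1 was higher, against 10.8% of all genes lower and 44.7% higher. In DMSO 19 were lower and 2 higher, against 10.7% and 42% of all genes. The median change of the 31 genes was -1.11 in GSI (all genes 0.26) and -1.26 in DMSO (all genes 0.25). All of the 22 secreted products had a negative change in both treatments, and 11 of them passed in GSI and 16 in DMSO. The 10 h and 4 h samples are separate cultures in separate runs, and effects of time and of run cannot be told apart.

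Ttr is an example of the size. Its deposited level was 5.93, 6.45, 8.09 and 5.54 in GSI samples at 10 h, against 8.74 at the lowest, 9.89 at the median and 11.56 at the highest in GSI samples at 4 h. In DMSO it was 5.98, 7.02, 7.26 and 5.80 at 10 h, against 8.01, 9.98 and 11.76 at 4 h. In these deposited values, whose scale is lower at 10 h, the times did not overlap in either treatment. With medians subtracted the change was -2.89 ± 0.647 (SE) in GSI (limma adjusted p = 0.00229) and -2.84 ± 0.661 (SE) in DMSO (limma adjusted p = 0.0031). On that scale the times overlapped in GSI for Ttr and for every other secreted product. Every 10 h sample lay below every 4 h sample for 0 of 22 in GSI and 9 of 22 in DMSO, and the share of all genes was not counted.

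Of the other plasma protein genes that fell most, Apoa2 was at -2.75 in GSI and -2.53 in DMSO, Fgg at -2.48 and -2.94, Alb at -2.20 and -2.23, and Fga at -2.23 and -2.36, all of which passed. Fabp1 (-1.75 in GSI and -2.55 in DMSO) and Krt8 (-1.21 and -1.42) passed too. With run as a random block the GSI calls of Alb (limma adjusted p = 0.0561), Fabp1 (0.0866), Krt8 (0.0782), Apom, Rbp4, F2 and Serpinc1 were lost, as was the DMSO call of Afp (0.0505). Afp was -2.19 ± 0.909 (SE) in GSI, where it did not pass (limma adjusted p = 0.055), and fell by 1.99 ± 0.702 (SE) in DMSO. Ambp and Fgb likewise passed in DMSO (-2.57 and -2.50) and not in GSI (-2.10 and -1.91), as did Ahsg, Kng1 and Proc, whereas Rbp4 passed in GSI alone. Apom, Vtn, Itih2, F2 and Serpinc1 passed in both, with changes between -0.87 and -1.61. Without GSI sample 3 at 10 h, the library that was high, 17 genes were lower in GSI, against 9.48% of all genes. Afp, Fgb, Ambp and Proc were among these 17, while Fabp1 no longer passed (limma adjusted p = 0.0562). H2-Q10, Apoh, Apoa1, Apob, Plg and Krt18 passed in neither. Whether the 2 treatments differ in these changes is the 10 h minus 4 h difference in GSI effect given above, which no hepatocyte gene passed.

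Of the genes that did not pass between cultures at 4 h, Ftcd fell by 0.71 in GSI and by 0.89 in DMSO. Foxa3 fell by 0.59 in GSI and was at -0.49 in DMSO (limma adjusted p = 0.0507). Cps1 rose by 0.36 in GSI and by 0.44 in DMSO, and Foxa1 was at 0.25 in GSI (limma adjusted p = 0.128) and rose by 0.39 in DMSO. These rises are relative to the array median: in the deposited values Cps1 was at -0.33 in GSI and -0.22 in DMSO, and Foxa1 at -0.44 and -0.27. Hnf4a and Foxa2 lay between -0.11 and 0.06 in both treatments.

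**Figure D5:**
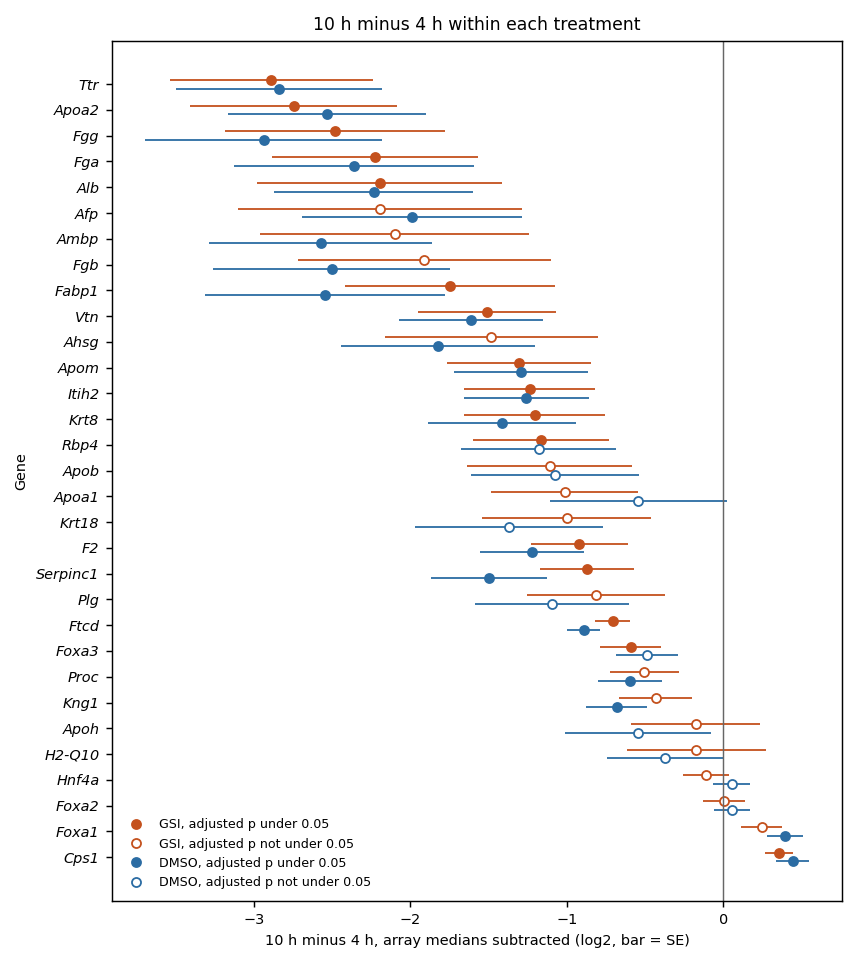
Log2 difference of 10 h minus 4 h, with array medians subtracted, for each of the 31 genes (rows, ordered by the value in GSI), with the SE as a bar; orange is GSI (4 arrays at 10 h, 7 at 4 h), blue is DMSO (4 and 7), and filled points passed. Ttr, Apoa2 and Fgg lie near the left end in both treatments, and Foxa1 and Cps1 lie right of 0.

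Scaling moved the counts. After quantile normalization of all arrays, 15 genes were lower and 0 higher in GSI (all genes 16.1% lower and 20.9% higher) and 19 lower and 0 higher in DMSO (15.3% and 18.8%). In the deposited values 29 were lower in GSI and 28 in DMSO, where 65% and 58.1% of all genes were. In GSI the count of 15 fell to 8 with run as a random block, against 9.03% of all genes. It was 7, 6 and 8 without GSI sample 1, 2 or 4 at 10 h, against 9.11%, 9.74% and 8.78% of all genes. With medians subtracted, every 10 h sample lay below every 4 h sample for 1 of the 31 genes in GSI and for 10 in DMSO. The share of all genes that did so was not counted, so these counts only describe the 31 genes. Other lists moved the same way, against 10.8% of all genes lower in GSI and 10.7% in DMSO. Of 18 endothelial genes, 15 were lower at 10 h in GSI and 16 in DMSO. Of 23 stromal and feeder genes 14 and 6 were lower, and of 18 macrophage genes 8 and 5, while 4 macrophage genes were higher in each. Of 15 bile duct and hepatoblast genes 6 were lower in each. In the erythroid list 6 of 14 genes were higher in each, a share near that of all genes (44.7% in GSI and 42% in DMSO). Their part was not tested.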

How the data were processed

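Expression was measured on 22 1-colour arrays. Per the labels' protocols, sorted cells went into an RNA extraction buffer, and complementary DNA was fragmented and biotin-labelled. The deposited values are on a log2 scale; the submitters' processing notes name Partek 6.6 and RMA as the authors' tools. No source says whether the arrays of 10 h and 4 h were normalized in 1 set.

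Of 41345 probes, 23521 had 1 gene symbol and were used, 1814 had several and 16010 had none listed. Genes with more than 1 probe (1082) took the probe with the highest mean. All 31 measured genes matched a GRCm38.p6 gene table by Entrez identifier. No array was a copy of another (highest correlation 0.9885).

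The hepatocyte genes and all lists were chosen with earlier results of these data known. limma 3.58.1 (R 4.3.3) gave all tests (lmFit, eBayes with intensity trend, Benjamini-Hochberg over all genes, 2-sided). For GSI effects, all 22 arrays entered 1 model with a block for the pair. The series' design text states that each replicate held a DMSO and a GSI sample. Partners' deviations from their group means correlated at 0.213 to 0.449 at 10 h, where 4 of 4 arrays were best with their own partner, and at 0.223 to 0.872 at 4 h, where 6 of 7 were. Cultures were compared by a moderated F test over pair means in the same fit. The difference between times was fitted within each treatment after subtracting array medians. The code was tested on simulated data with 200 changed genes. Alternatives covered the block, spread, normalization, trend, dim genes, probe choice, run and left-out samples. All 32 listed genes are accounted for. Other liver genes are named only where called, at most 5 a comparison and direction by p, and otherwise by the 10 highest and 5 lowest correlations with the mean of the hepatocyte genes. Promoters come from RefSeq.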

Additional observations from a re-analysis of the deposited data

Results flagged for a closer look

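Of 186 groups of levels or pair differences of single genes, 13 held a sample far from the others (a gap to its neighbour above Dixon's 95% value for the group's size), and chance flags about 1 in 20 groups, or 9.3 here. In GSI samples at 10 h, sample 3 was the high one for 5 genes: Fgb at 5.98 (nearest other 3.40), Ambp at 7.20 (4.33), Fgg at 4.45 (3.09), Ahsg at 5.85 (4.52) and Apob at 4.52 (3.65). The GSI minus DMSO difference of pair 3 at 10 h stood high for Itih2 (1.24, nearest other -0.32), Apom (0.57, nearest other -0.06) and Apoa1 (0.16, nearest other -0.65). In DMSO samples at 10 h, Rbp4 was low in sample 1 (5.59, nearest other 6.00) and Krt18 low in sample 4 (5.44, nearest other 6.53). In GSI samples at 4 h, Foxa2 was high in sample 6 (5.99, nearest other 5.61) and Ftcd high in sample 1 (5.64, nearest other 5.35). The GSI minus DMSO difference of F2 was low in pair 4 at 4 h (-0.95, nearest other -0.15). None of the 31 hepatocyte genes had a GSI effect that differed between the times by limma's adjusted p. An unadjusted p under 0.05 was found for 2 of them, and for 2075 of all 22180 genes.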

How the results depend on the processing

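The count of hepatocyte genes that differed between cultures at 4 h was 19 to 26 under the alternatives tried, against 2.77% to 47.1% of all genes. Where dim genes were left out it was 19 of 21 tested, and 47.1% of the 11090 genes kept differed too. Without any 1 culture it was 25, against 11.6% to 25.8% of all genes. At 10 h it was 6 as reported (11.9% of all genes), 3 with the spread set by time (5.87%) and 2 with 10 h arrays alone (1.46%). It was 0 within the run of pairs 1 and 2 (0.00902% of all genes), and 3 within that of pairs 3 and 4 (1.22%). Without 1 culture it was 2 to 7, against 5.1% to 13.7% of all genes. For GSI minus DMSO at 10 h and for the difference between the times, no alternative called any of the 31 genes. At 4 h, 1 gene (H2-Q10) was called with the spread set by time and with 4 h arrays alone, and 2 (H2-Q10 and Ttr) within the run of pairs 2 and 3, where 148 genes were called in all. Without the replicate block, which the paired design calls for, 0 of the 31 genes and 0 of all genes were called for GSI at either time, against 148 of all genes with it at 10 h. The count over all genes at 10 h was 19 with the spread set by time, 36 after quantile normalization, 64 after cyclic loess, 91 with no trend, 285 where dim genes were left out and 2 with 10 h arrays alone.

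For 10 h minus 4 h in GSI, the genes lower at 10 h were 15 as reported (10.8% of all genes) and 29 in the deposited values (65%). They were 8 with run as a random block (9.03%) and 6 to 21 without 1 sample (8.78% to 11.4%). Those higher were 1 as reported (44.7%) and 1 to 2 without 1 sample (38.8% to 46.9%). They were 0 after quantile normalization, after cyclic loess, where dim genes were left out and in the deposited values (2.12% to 32.9%). In DMSO those lower were 19 (10.7%), with 16 to 23 without 1 sample (8.32% to 11.2%). Those higher in DMSO were 2 (42%), with 0 under the same 4 settings (2.09% to 24.5%). Reversed in the deposited values, whose scale is lower at 10 h, were Foxa1 (-0.44), Foxa2 (-0.68) and Cps1 (-0.33) in GSI, and Hnf4a (-0.61), Foxa1 (-0.27), Foxa2 (-0.61) and Cps1 (-0.22) in DMSO. The causes of the other moves were not tested. With 4 pairs at 10 h and no detection limit, small changes of dim genes could not be resolved.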

Other observations

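Some liver genes outside the 31 also differed between cultures. Of 54 further hepatocyte genes measured, 24 differed between cultures at 4 h, with a median range of 0.84, and so did 7 of 15 bile duct and hepatoblast genes (0.80), against 25.5% of all genes and a median range of 0.44. Serpina1d and Serpina1e, which encode alpha-1-antitrypsins, ranged 17.3-fold and 7.51-fold, and Apoc2, which activates lipoprotein lipase, ranged 5.83-fold, each from culture 1 to culture 5. Nr5a2, a nuclear receptor gene, ranged 13.5-fold and Hpn, for the protease hepsin, 2.82-fold, but both were highest in culture 6. Cdh1, for E-cadherin, ranged 5.23-fold with the highest level in culture 5, and Dlk1, a hepatoblast surface gene, ranged 3.71-fold with the highest level in culture 2. At 10 h, 4 of the 54 genes differed between cultures (Cfb, Tfr2, Nr5a2 and Hamp), a share below the 11.9% of all genes. Hamp, for the iron hormone hepcidin, ranged 11.1-fold and was highest in culture 3. No gene of these 2 lists was called for GSI minus DMSO at either time.

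Between the times, Igf2, a fetal growth factor gene, was lower at 10 h by a log2 change of -2.08 in GSI and -2.48 in DMSO (array medians subtracted), and Apoc1, for an apolipoprotein, by -2.01 and -1.72. All of these passed. Of the 54 further hepatocyte genes, 13 were lower and 14 higher in GSI, against 10.8% and 44.7% of all genes, and 17 were lower and 16 higher in DMSO, against 10.7% and 42% of all genes. Their median change was -0.0034 in GSI (all genes 0.26) and 0.076 in DMSO (all genes 0.25).

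Over the 22 arrays, with the mean of each time subtracted, the genes most like the mean of the 31 hepatocyte genes were Serpina1d (r = 0.98), Serpinf2 (0.97), Spp2, Serpina6, Spink1, Apoc2, Plet1, Rgn, Apof and Serpina1c (0.92). The least like were Nfyb (-0.78), Rtl3, 4933431K23Rik, Cntn5 and Chac1 (-0.69). These correlations only describe arrays that share cultures and runs.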
